A study of Mus musculus with 4 samples.

Results

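The aminoacyl-tRNA synthetases are the 36 genes described here, taken by gene symbol from a table of estimated counts for 32617 mouse genes, with rows outside the primary chromosomes left out. They comprise 20 genes for cytosolic enzymes and 16 for mitochondrial enzymes, and they were chosen by name, not by a measured value. The table holds 4 libraries of macrophages grown from the blood of C57BL/6J mice aged 10 to 16 weeks, with 60 mice bled of 1 ml each and the blood pooled. Cells selected for CD11b, a surface integrin of monocytes, were kept with 30 ng/ml M-CSF for 6 or 7 days, a growth factor under which monocytes become macrophages. In the group CAM+mML56 (2 libraries, called peptide libraries 1 and 2), macrophages were activated with 500 ng/ml LPS plus 20 ng/ml IFNγ and received the peptide mML56, which mimics residues 1 to 56 of Ninj1, the part that is shed as a soluble form. In the group CAM, classically activated macrophages (1 library), cells received LPS and IFNγ without the peptide. In the group M-CSF (1 library), cells received M-CSF alone. All groups share the M-CSF culture, no genotype differs between them, and C57BL/7J is written as the strain of the peptide samples. No dose or timing of the peptide is given in the sources used here.

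Each aminoacyl-tRNA synthetase joins 1 kind of amino acid to its transfer RNAs, the step that sets which amino acid a codon stands for. Cytosolic enzymes feed the ribosomes that read nuclear messages, and a separate set, nearly all of it encoded by other nuclear genes and carrying the suffix 2, is imported into mitochondria to feed the ribosomes that read mitochondrial messages. Several cytosolic enzymes sit in a large multi-synthetase complex held together by the scaffold proteins Aimp1, Aimp2 and Eef1e1. Many cytosolic synthetase genes are known targets of Atf4, the transcription factor of the amino acid response, and in human cells the gene for the tryptophan enzyme is a classical interferon gamma target. Gars and Kars each encode both the cytosolic and the mitochondrial form of their enzyme.

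The libraries held 12842680 and 12119427 counts (peptide libraries 1 and 2), 10333986 (CAM) and 12414586 (M-CSF), and 14104 genes passed the filter on low counts. Levels are in CPM, that is, counts relative to a library size that TMM scaling has adjusted, and a gene is called higher or lower where the Benjamini-Hochberg adjusted p of edgeR's quasi-likelihood test over all those genes is below 0.05. With 1 library each for CAM and M-CSF, the spread in that test comes from the pair of peptide libraries, and the lone libraries are assumed to vary like them. Nothing in the labels says that libraries came from separate cultures, so the p-values measure a spread that may be technical. All 8 macrophage markers were present in the table, with a summed level of 5562 and 4753 CPM in peptide libraries 1 and 2, 7665 CPM in CAM and 22430 CPM in M-CSF. Most of that sum was Lyz2, the macrophage lysozyme, at 2837 and 2370 CPM in the peptide libraries, 4554 CPM in CAM and 20860 CPM in M-CSF; the other 7 markers summed to 2725 and 2383 CPM in the peptide libraries, 3111 CPM in CAM and 1567 CPM in M-CSF. Of the 8 markers 4 were higher and 3 lower in CAM than in M-CSF, against 21.4% and 23% of all tested genes. Higher were Adgre1, Itgam, Cd14 and Fcgr1, and lower were Lyz2, Csf1r and Cd68. Csf1r was at 65.4 CPM in CAM and 399.1 CPM in M-CSF. Cd68 was at 38.95 and 32.82 CPM in the peptide libraries, 1.19 CPM in CAM and 13.41 CPM in M-CSF. Summed markers of T and NK cells reached 4.44 CPM at most, those of B cells 2.40, of neutrophils 6.60 and of erythroid cells 0.0860, while platelet markers summed to 13.4 CPM (peptide library 1), 11.6 CPM (peptide library 2), 5.41 CPM (CAM) and 77.4 CPM (M-CSF). Pf4 alone was at 11.8 and 8.64 CPM in the peptide libraries, 2.06 CPM in CAM and 74.2 CPM in M-CSF. Itga2b was at 1.63 and 2.49 CPM in the peptide libraries, 2.92 CPM in CAM and 2.66 CPM in M-CSF. Ppbp and Gp9 had at most 5 counts in any library. In the T and NK list 3 of 6 markers had no count in any library, as had 1 of 4 in the B cell list, 2 of 5 in the neutrophil list and 3 of 4 in the erythroid list. The part of other cells in the results was not tested, and in bulk RNA fewer cells of a type and less RNA per cell cannot be told apart.

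The median cytosolic synthetase stood above the median mitochondrial one, Lars2 left aside, in every library, though the sets overlapped. In M-CSF, for example, Cars2 had 13.8 CPM per kilobase, above the cytosolic median. Iars had 0.307 there, below the mitochondrial median. Per kilobase of the longest coding transcript, the median cytosolic gene had 9.78 and 10.3 CPM in peptide libraries 1 and 2, 10.5 CPM in CAM and 7.77 CPM in M-CSF. The median of the 15 mitochondrial genes other than Lars2 was 1.38 and 1.21 CPM per kilobase in peptide libraries 1 and 2, 1.69 in CAM and 2.25 in M-CSF. The highest gene other than Lars2 on this scale was Wars, the tryptophan enzyme, in the peptide libraries (121 and 143 CPM per kilobase) and in CAM (68.7), and Nars, the asparagine enzyme, in M-CSF (76.8). Averaged over the libraries, Fars2 and Rars2, the mitochondrial enzymes for phenylalanine and arginine, were lowest. Both had at most 5 counts in any library and were the only members not tested. Of the 34 tested members, 20 were cytosolic and 14 mitochondrial.

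**Figure D1:**
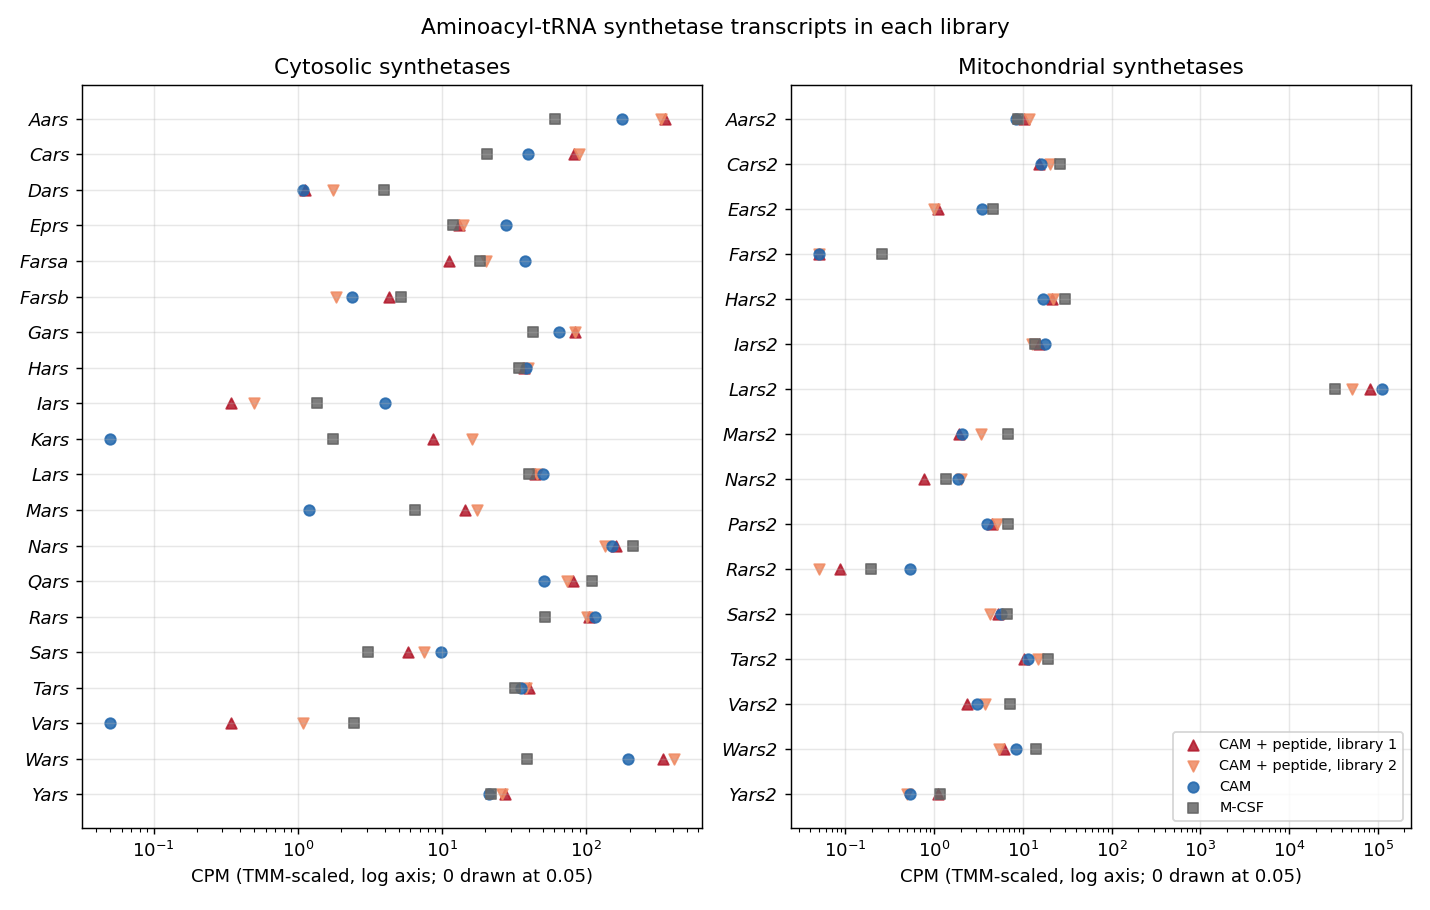
Level of each cytosolic (left) and mitochondrial (right) synthetase in CPM on a log axis, with 1 symbol per library and values listed at 0 drawn at 0.05. Lars2 stands at 32570 CPM or more in every library while no other member passes 405 CPM, and Kars and Vars are listed at 0 in CAM.

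Against M-CSF, summed levels in the activated libraries were higher for the cytosolic genes and lower for the mitochondrial ones, while the mitochondrial sums of the peptide libraries lay on either side of CAM. The 20 cytosolic genes summed to 1411 and 1445 CPM in peptide libraries 1 and 2, 1021 CPM in CAM and 717.6 CPM in M-CSF. Wars and Aars, the alanine enzyme, held most of that difference: without them the sums were 720 and 712 CPM in the peptide libraries, 649 in CAM and 618 in M-CSF. The mitochondrial genes other than Lars2 summed to 95.5 and 106 CPM in peptide libraries 1 and 2, 99.6 CPM in CAM and 146 CPM in M-CSF. These sums depend on the scaling. Without TMM factors the cytosolic sum was 1278 and 1434 CPM in the peptide libraries, 913 CPM in CAM and 892 CPM in M-CSF, so that CAM and M-CSF nearly coincide, and the mitochondrial sum was 86.5 and 106 CPM in the peptide libraries, 89.0 CPM in CAM and 182 CPM in M-CSF.

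In CAM against M-CSF, 8 of 20 cytosolic genes were higher and 4 lower, with a background of 44.4% of all tested genes called, 21.4% higher and 23% lower. The higher genes were Aars, Cars, Eprs, Farsa, Gars, Rars, Sars and Wars, which serve alanine, cysteine, glutamate with proline, phenylalanine, glycine, arginine, serine and tryptophan. The lower genes were Kars, Mars, Qars and Vars, for lysine, methionine, glutamine and valine. Kars and Vars are counted here although their CAM value is a listed 0. The median log2 fold change of the 20 genes was 0.24, against -0.07 over all tested genes. With library sizes alone, in place of TMM, the cytosolic median turned to -0.23 while the median of all genes moved to -0.55. The distance between them was 0.32 under both scalings. A change of scaling moves all genes by nearly the same amount, so this distance could hardly change and tests nothing. Called higher were 4 genes with DESeq2 and 3 with library sizes alone, and Aars, Rars and Wars were called under each of the 5 alternatives.

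Wars had the largest rise among the cytosolic genes. It stood at 194.6 CPM in CAM and 38.8 CPM in M-CSF, a log2 fold change of 2.33 ± 0.21 (SE; edgeR adjusted p = 1.66e-06). The CAM value is 5.01 times the M-CSF value. Aars had 177 CPM in CAM and 60.4 CPM in M-CSF (log2 fold change 1.55 ± 0.20, edgeR adjusted p = 2.87e-05). Sars was far less abundant, with 9.85 CPM in CAM and 3.05 CPM in M-CSF, and its log2 fold change of 1.69 ± 0.44 (edgeR adjusted p = 0.00688) was not called by DESeq2 or with library sizes alone. The other called rises lay between 0.58 (Gars) and 1.21 (Eprs).

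Mars, whose enzyme also charges the initiator transfer RNA, was at 1.19 CPM in CAM and 6.48 CPM in M-CSF (log2 fold change -2.43 ± 0.46, edgeR adjusted p = 0.000794). Its gene overlaps Ddit3, a stress-induced transcription factor gene, by 68 bases, and Ddit3 was at 8.44 CPM in CAM and 3.89 CPM in M-CSF (edgeR adjusted p = 0.0553). Kars was listed at 0 in CAM and had 1.75 CPM in M-CSF. Vars was listed at 0 in CAM and had 2.46 CPM in M-CSF. Whether such a value of exactly 0 is a true absence or an estimate that failed was not tested. No fold is given for either gene. Placed at a floor of 3 counts, 0.325 CPM in CAM, both genes stay below the cytosolic median. That median of 0.24 therefore cannot change with the floor, which tests nothing about the listed values. Qars, chosen after its values were seen, was abundant in both, at 50.9 CPM in CAM and 109.9 CPM in M-CSF (log2 fold change -1.11 ± 0.20, edgeR adjusted p = 0.000522).

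Of the 14 tested mitochondrial genes, 1 was higher in CAM than in M-CSF, Lars2, and 2 were lower, Hars2 and Mars2, and both shares are below the background for their direction. Without Lars2, 11 of the other 13 had negative log2 fold changes, and their median was -0.74, against -0.07 over all tested genes. Mars2, the mitochondrial methionine enzyme, was at 2.06 CPM in CAM and 6.74 CPM in M-CSF (log2 fold change -1.71 ± 0.59, edgeR adjusted p = 0.0322). Hars2, the mitochondrial histidine enzyme, was at 16.9 CPM in CAM and 29.9 CPM in M-CSF (log2 fold change -0.82 ± 0.27, edgeR adjusted p = 0.0232). Hars2 lies head to head with Hars, the cytosolic enzyme, on chromosome 18, and the genes overlap by 198 bases. They share 165 of their 31-base words, counted without regard to strand. Reads may have been split between them if strand was not used in the counting, and the strand setting is not given. Neither fall was called by DESeq2, with which 0 mitochondrial genes were lower at an adjusted or an unadjusted p below 0.05, while edgeR had 5 at an unadjusted p below 0.05.

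**Figure D2:**
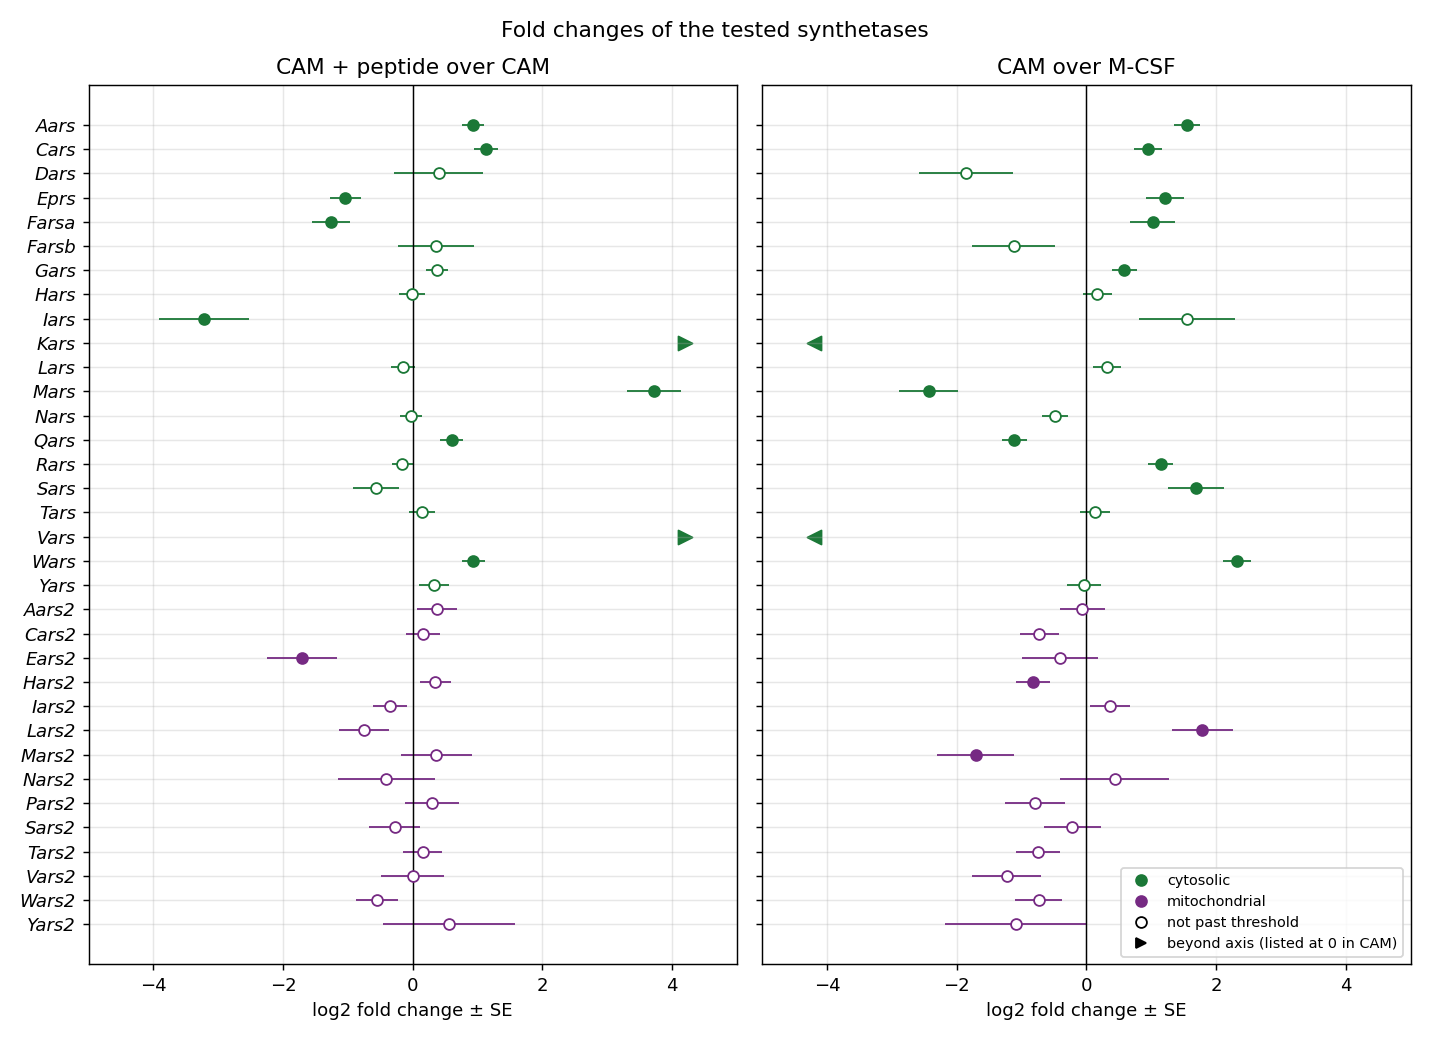
Log2 fold change with its standard error for each tested synthetase, CAM+mML56 over CAM on the left and CAM over M-CSF on the right; filled symbols passed edgeR's threshold, open symbols did not, and triangles mark Kars and Vars, listed at 0 in CAM. Wars and Aars lie to the right of 0 in both panels, and Mars lies at 3.73 on the left and at -2.43 on the right; both panels share the CAM library.

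The enzymes of both compartments can be set side by side for 13 amino acids with tested genes on each side. In CAM over M-CSF, the cytosolic log2 fold change was above its mitochondrial partner's for 9 of the 13. With valine (Vars listed at 0) and leucine (Lars2) left aside, it was above for 9 of 11, with a median difference of 1.18. Among these 11, tryptophan showed the widest gap: Wars had 2.33 and Wars2 had -0.74, a difference of 3.07. For serine the pair stood at 1.69 (Sars) and -0.22 (Sars2), for cysteine at 0.95 (Cars) and -0.72 (Cars2) and for alanine at 1.55 (Aars) and -0.06 (Aars2). Asparagine and methionine ran the other way, with -0.48 (Nars) and 0.43 (Nars2), and -2.43 (Mars) and -1.71 (Mars2). These differences between genes carry no test.

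**Figure D3:**
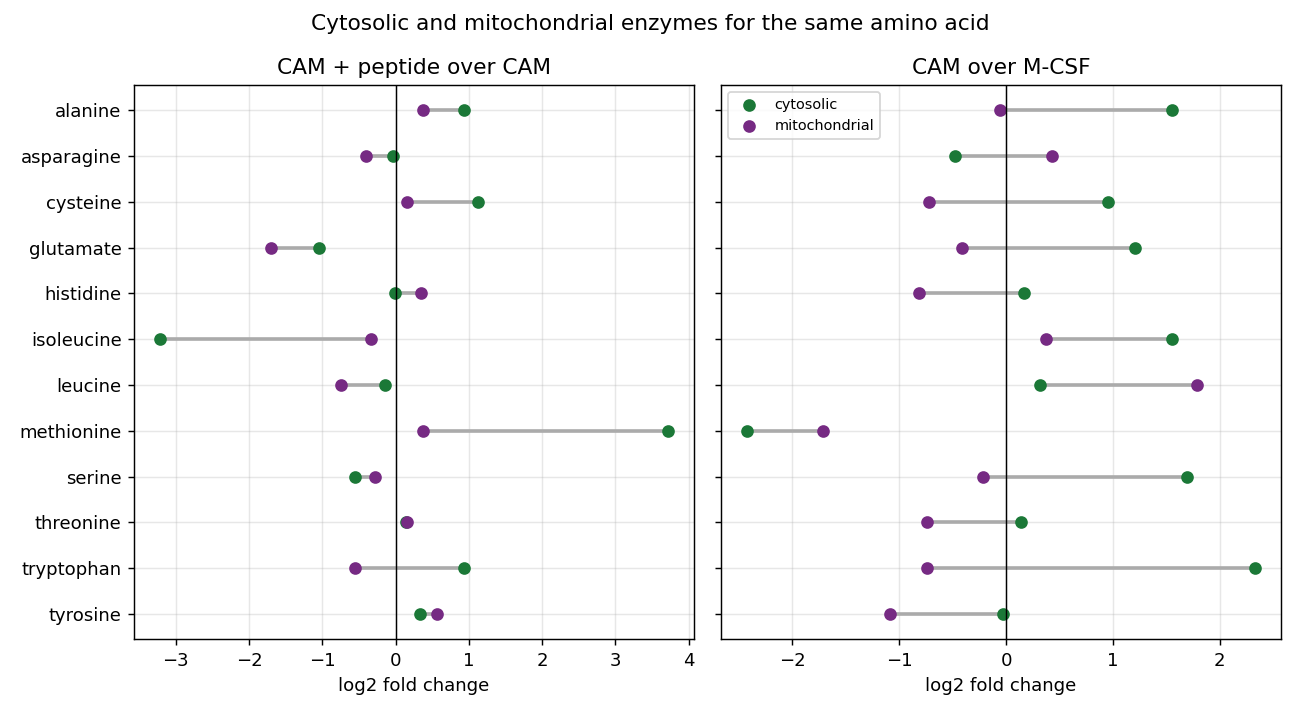
Log2 fold changes of the cytosolic and the mitochondrial enzyme for the same amino acid, joined by a line, for CAM+mML56 over CAM (left) and CAM over M-CSF (right), without valine because Vars is listed at 0 in CAM. In CAM over M-CSF the cytosolic point lies to the right for 9 of the 12 pairs shown, and in CAM+mML56 over CAM for 7 of 12.

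In CAM+mML56 against CAM, 7 of 20 cytosolic genes were higher and 3 lower, with a background of 37.7% of all tested genes called, 20.6% higher and 17.1% lower. The higher genes were Aars, Cars, Kars, Mars, Qars, Vars and Wars, and the lower ones were Eprs, Farsa and Iars, the isoleucine enzyme. The median log2 fold change was 0.34, or 0.19 without peptide library 1, against 0.05 over all tested genes. Both comparisons use the same CAM library, so a value that is low or high in that library alone moves a gene in opposite directions in them. DESeq2 called none of the 3 falls and did not call Qars or Vars higher. Aars, Cars, Kars, Mars and Wars were called higher under each of the 5 alternatives. For Kars and Vars the calls rest on a listed 0 in CAM. Every alternative shares that value, so for Kars their agreement adds no support.

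Wars reached 342 and 405 CPM in peptide libraries 1 and 2, against 194.6 CPM in CAM (log2 fold change 0.94 ± 0.18, edgeR adjusted p = 0.00149). Aars had 349 and 328 CPM in the peptide libraries, against 177 CPM in CAM (log2 fold change 0.93 ± 0.17, edgeR adjusted p = 0.00108). Cars had 82.2 and 89.7 CPM in the peptide libraries, against 39.3 CPM in CAM and 20.3 CPM in M-CSF (log2 fold change over CAM 1.13 ± 0.19, edgeR adjusted p = 0.000525). For these 3 genes both peptide libraries lay above the single CAM library, which lay above the single M-CSF library. How many of all tested genes had this order was not counted. The peptide libraries differed from each other by 1.18-fold for Wars, 1.07-fold for Aars and 1.09-fold for Cars.

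Mars had 14.4 and 17.4 CPM in peptide libraries 1 and 2, against 1.19 CPM in CAM (log2 fold change 3.73 ± 0.42, edgeR adjusted p = 3.83e-05). Both peptide libraries also lay above the 6.48 CPM of M-CSF. Kars had 8.60 CPM in peptide library 1 and 16.2 CPM in peptide library 2 but is listed at 0 in CAM; both values exceed the 1.75 CPM of M-CSF. Vars had 0.344 and 1.08 CPM in the peptide libraries, which is 4 and 13 counts, and is listed at 0 in CAM; both values lie below the 2.46 CPM of M-CSF. With DESeq2, with library sizes alone or without the filter on low counts, Vars was not called.

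Iars had 0.344 and 0.499 CPM in peptide libraries 1 and 2, 4 and 6 counts, against 4.004 CPM and 37 counts in CAM and 1.36 CPM and 21 counts in M-CSF (log2 fold change over CAM -3.21 ± 0.69, edgeR adjusted p = 0.00312). Farsa, the catalytic subunit of the phenylalanine enzyme, had 11.1 and 20.2 CPM in the peptide libraries, against 37.5 CPM in CAM (log2 fold change -1.26 ± 0.30, edgeR adjusted p = 0.0053). Both peptide libraries lay below CAM for Iars and Farsa, though for Farsa they differed from each other by 1.82-fold, and M-CSF at 18.5 CPM lay between them. Farsb, its other subunit, had 4.30 and 1.83 CPM in the peptide libraries and 2.38 CPM in CAM, so the groups overlapped (edgeR adjusted p = 0.657). Eprs, chosen after its values were seen, had 13.1 and 14.0 CPM in the peptide libraries, against 27.8 CPM in CAM and 12.0 CPM in M-CSF (log2 fold change over CAM -1.04 ± 0.24, edgeR adjusted p = 0.005).

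Among the 14 tested mitochondrial genes, 0 were higher and 1 was lower in CAM+mML56 than in CAM by edgeR, with the same counts at an unadjusted p below 0.05; DESeq2 called 0 in either direction. The median log2 fold change was 0.08, close to the 0.05 of all tested genes, and it turned to -0.09 without peptide library 2. The lower gene was Ears2, the mitochondrial glutamate enzyme, with 1.12 and 0.997 CPM in peptide libraries 1 and 2, against 3.46 CPM in CAM and 4.60 CPM in M-CSF (log2 fold change over CAM -1.70 ± 0.54, edgeR adjusted p = 0.0263). Both peptide libraries lay below the others, on 13 and 12 counts, against 32 in CAM and 71 in M-CSF. DESeq2 gave it an adjusted p of 0.388, and 0.0557 was the adjusted p with library sizes alone. For the same-amino-acid pairs, the cytosolic log2 fold change was above its partner's for 8 of 13, or 6 of 11 without valine and leucine, with a median difference of 0.38.

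In CAM+mML56 against M-CSF, 8 of 20 cytosolic genes were higher and 2 lower, with a background of 41.2% of all tested genes called, 22.1% higher and 19% lower. Aars, Cars, Gars, Kars, Mars, Rars, Sars and Wars were higher, and Nars and Qars were lower. Wars reached a log2 fold change of 3.27 ± 0.21 (edgeR adjusted p = 4.15e-08), 9.62-fold, and Aars 2.49 ± 0.19 (edgeR adjusted p = 2.04e-07). Of the 14 tested mitochondrial genes 0 were higher by edgeR, or 1 at an unadjusted p below 0.05, and 4 were lower: Ears2, Mars2, Vars2 and Wars2, the last for tryptophan. Wars2 had 6.10 and 5.32 CPM in peptide libraries 1 and 2, against 8.33 CPM in CAM and 13.9 CPM in M-CSF (log2 fold change over M-CSF -1.28 ± 0.30, edgeR adjusted p = 0.00418), while Wars had its highest levels in those same libraries. Wars2 was set beside Wars after its values were seen. Medians were 0.23 for cytosolic and -0.51 for mitochondrial genes, against -0.08 over all tested genes; the cytosolic one turned to -0.16 with library sizes alone, where all genes had -0.46. DESeq2 called 0 of the cytosolic and mitochondrial falls, with 1 and 0 at an unadjusted p below 0.05.

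Lars2, the mitochondrial leucine enzyme on chromosome 9 (chr9:123366927-123462666, mm10, + strand), stood far above the rest of the family. It had 82720 and 51230 CPM in peptide libraries 1 and 2, 112500 CPM in CAM and 32570 CPM in M-CSF. That is 237-fold and 127-fold the next highest member in the peptide libraries, 578-fold in CAM and 155-fold in M-CSF. As a share of all counts, Lars2 took 7.49% and 5.09% in peptide libraries 1 and 2, 10.06% in CAM and 4.05% in M-CSF. The Wilson 95% interval was 10.04% to 10.08% in CAM and narrower in the others, and it covers counting error only. CAM was the highest library and M-CSF the lowest, and the peptide libraries lay between and differed from each other by 1.61-fold. The log2 fold change was 1.79 ± 0.48 in CAM over M-CSF (edgeR adjusted p = 0.00805), -0.75 ± 0.39 in CAM+mML56 over CAM (edgeR adjusted p = 0.149) and 1.04 ± 0.42 in CAM+mML56 over M-CSF (edgeR adjusted p = 0.0632). Lars, the cytosolic leucine enzyme, passed in none of these comparisons and spanned 40.0 to 49.8 CPM over the 4 libraries.

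The count of Lars2 is taken here as doubtful as a measure of its messenger RNA. A second gene model with a count of that order was Gm15662, an annotated model on chromosome 10 (chr10:105238134-105238292, mm10), with 3.01% and 2.70% of counts in peptide libraries 1 and 2, 4.09% in CAM and 2.35% in M-CSF. Its order over the libraries was that of Lars2, and the ratio of Lars2 to Gm15662 counts was 2.49 and 1.88 in peptide libraries 1 and 2, 2.46 in CAM and 1.72 in M-CSF. Gm15662 had a log2 fold change of 1.27 ± 0.38 in CAM over M-CSF (edgeR adjusted p = 0.0147). In the GENCODE M21 annotation the longest coding Lars2 transcript has 3894 bases in 21 exons, and its coding part ends at base 2905. It shares 31-base words with the gene model AA474408 between bases 3172 and 3313 and with Gm15564 between bases 3278 and 3329, both after the coding part. Over all Lars2 transcripts 103 of its 31-base words (0.923%) also occur in other genes. Which RNA molecules gave the Lars2 counts was not tested, because reads were not analysed here. Taking Lars2 and Gm15662 out of the table before scaling left each of the other members' calls as they were in all 3 comparisons.

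**Figure D4:**
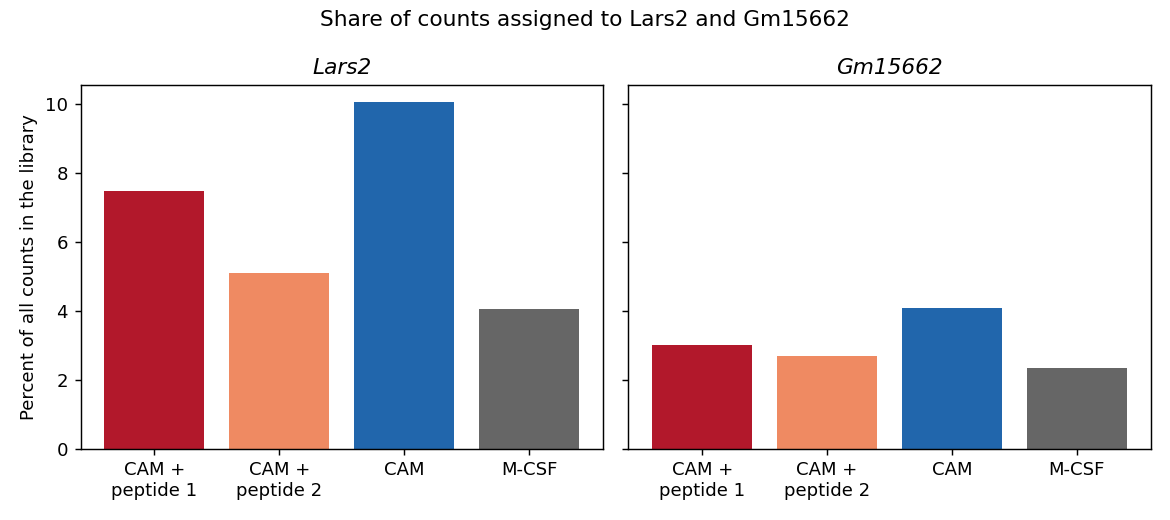
Share of all counts in each library assigned to Lars2 (left) and to Gm15662 (right), 1 bar per library on a shared axis from 0. Both are highest in CAM, at 10.06% and 4.09%, and lowest in M-CSF, at 4.05% and 2.35%.

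The deposited estimated counts were whole numbers for some members and fractional for others. Whole in all 4 libraries, within 0.01, were 10 members: Gars, Lars, Nars, Rars, Tars, Wars, Aars2, Ears2, Lars2 and Pars2. Their log2 fold changes in CAM over M-CSF ran from -0.79 to 2.33, and those in CAM+mML56 over CAM from -1.70 to 0.94. The other 26 members had a fractional value somewhere; leaving out Kars and Vars, for which no fold is given, the tested ones ran from -2.43 (Mars) to 1.69 (Sars) and from -3.21 (Iars) to 3.73 (Mars). Mars and Iars had 11 counts or fewer in some library. Iars shares 14.7% of its 31-base words with other genes, mostly the gene model Gm4849, and Kars 4.98%, Mars 1.24% and Vars 0.741%. Aars, whose counts were mostly fractional, shares 1296 words with the neighbouring Exosc6, an exosome subunit gene. Of the 36 members 8 share none: Gars, Lars, Nars, Rars, Wars, Aars2, Rars2 and Yars2. Whole counts did not follow this in every member, since Rars2 and Yars2 had fractional ones, while Tars, Ears2, Lars2 and Pars2 share words and had whole ones.

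The members also differ by how well the peptide libraries matched. The fold between the pair, taken as the higher over the lower, had a median of 1.15 over the cytosolic genes and of 1.24 over the 13 mitochondrial genes other than Lars2 with a count in both. Of the cytosolic genes 15 of 20 lay within 1.5-fold, and the widest was Vars at 3.14-fold. Of those mitochondrial genes 9 of 13 did, and the widest was Nars2 at 2.58-fold, on 9 and 24 counts.

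Of the 8 enzymes of the multi-synthetase complex, 2 were higher and 3 lower in CAM than in M-CSF (background 21.4% and 23%), and 3 were higher and 2 lower in CAM+mML56 than in CAM (background 20.6% and 17.1%). In CAM over M-CSF Eprs and Rars were higher, Kars, Mars and Qars were lower and Dars, Iars and Lars did not pass. In CAM+mML56 over CAM Kars, Mars and Qars were higher, and Eprs and Iars were lower. Both Kars calls rest on its listed 0 in CAM. The scaffolds Aimp1, Aimp2 and Eef1e1 passed in neither comparison, with log2 fold changes of -0.31, -0.54 and 0.64 in CAM over M-CSF and 0.57, -0.36 and -0.80 in CAM+mML56 over CAM. By catalytic class, 4 of 17 class I enzymes were higher and 4 lower in CAM than in M-CSF, and 4 of 16 class II enzymes were higher and 2 lower. The corresponding counts in CAM+mML56 over CAM were 5 higher and 2 lower in class I, and 2 higher and 1 lower in class II. These small counts stand against the same background shares. Eprs was placed in neither class. The higher class I genes in CAM over M-CSF include Lars2, whose count is doubtful. Vars in class I and Kars in class II were counted in both comparisons on a listed 0 in CAM.

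Of 15 genes that work beside the synthetases, 1 was higher and 3 lower in CAM than in M-CSF (background 21.4% and 23%). In CAM+mML56 against CAM 1 was higher and 3 lower (background 20.6% and 17.1%). Sepsecs, which makes selenocysteine on its transfer RNA, had 1.12 and 4.32 CPM in peptide libraries 1 and 2, 9.52 CPM in CAM and 2.33 CPM in M-CSF. It was higher in CAM than in M-CSF (log2 fold change 2.03 ± 0.70, edgeR adjusted p = 0.0316) and lower in CAM+mML56 than in CAM (-1.80 ± 0.57, edgeR adjusted p = 0.0258), with M-CSF between the peptide libraries. Pstk, the kinase of the step before it, fell in CAM+mML56 relative to CAM (log2 fold change -0.97 ± 0.27, edgeR adjusted p = 0.0136). Tarsl2, a second cytosolic threonine enzyme, fell in CAM relative to M-CSF (log2 fold change -1.98 ± 0.45, edgeR adjusted p = 0.003). Gatb, a subunit of the mitochondrial complex that makes glutaminyl-tRNA in place of a glutamine enzyme, fell as well (-1.62 ± 0.40, edgeR adjusted p = 0.00485), as did Gatc, another subunit. Prorsd1 was the gene higher in CAM+mML56 than in CAM.

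Of 27 genes of the amino acid response other than the synthetases, 25 were tested, and 12 were higher and 2 lower in CAM than in M-CSF, against 21.4% and 23% of all tested genes. Atf4 was at 319 and 273 CPM in peptide libraries 1 and 2, 239 CPM in CAM and 44.2 CPM in M-CSF. It rose in CAM relative to M-CSF (log2 fold change 2.43 ± 0.21, edgeR adjusted p = 9.27e-07) and did not pass in CAM+mML56 over CAM (0.31 ± 0.17, edgeR adjusted p = 0.177). The median of the 25 genes was 1.48 in CAM over M-CSF, against -0.07 over all genes. Slc7a11, the cystine transporter, was at 92.3 and 96.8 CPM in the peptide libraries, 1770 CPM in CAM and 11.9 CPM in M-CSF. Psat1, an enzyme of serine synthesis, was at 20.5 and 12.2 CPM in the peptide libraries, 86.5 CPM in CAM and 4.15 CPM in M-CSF. Both had their highest level in CAM, unlike Wars, Aars and Cars. Not all genes of the list did so. Nupr1 and Trib3, chosen after their values were seen, had the same order as Wars, Aars and Cars. Nupr1 was at 202.5 and 200 CPM in the peptide libraries, 23.5 CPM in CAM and 5.83 CPM in M-CSF. Trib3 was at 43.1 and 43.2 CPM in the peptide libraries, 18.4 CPM in CAM and 1.68 CPM in M-CSF.

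Against CAM, the peptide libraries had 6 of the 25 genes higher and 6 lower, near the background of 20.6% and 17.1%, with a median of -0.07. Slc7a11 fell by 4.23 on the log2 scale (edgeR adjusted p = 1.3e-08). Chac1, a glutathione-degrading enzyme, was at 0.258 and 0.0831 CPM in peptide libraries 1 and 2, 1.73 CPM in CAM and 0.194 CPM in M-CSF, all on 16 counts or fewer (log2 fold change over CAM -3.28 ± 1.08, edgeR adjusted p = 0.0299). Atf5, a transcription factor of the same response, was at 12.7 and 7.31 CPM in the peptide libraries, 0.216 CPM in CAM and 3.95 CPM in M-CSF. Its log2 fold change over CAM, 5.47 ± 0.715 (edgeR adjusted p = 0.000103), rests on 2 counts in CAM. Stc2, a secreted glycoprotein, was at 9.72 and 14.4 CPM in the peptide libraries, at 2.60 CPM in CAM and at a listed 0 in M-CSF. Asns, the asparagine synthetase and a standard reporter of the response, had counts in 1 library only, 7 in peptide library 1, and Phgdh, the first enzyme of serine synthesis, had no count in any library; neither was tested.

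Upstream sequences from RefSeq, on GRCm38.p6, matched 26 of the 36 genes, 12 cytosolic and 14 mitochondrial; not matched were Cars, Hars, Lars, Mars, Nars, Rars, Vars, Wars, Hars2 and Pars2. In the 250 bases before the start, TGATGNAA, the core of the C/EBP-ATF response element that Atf4 binds, was searched on both strands. It occurred in 3 of 12 cytosolic genes, Gars and Tars among them, in 0 of 14 mitochondrial genes, and in 3.53% of the 27025 promoters of all genes. The windows of Gars and Tars are shown because Gars rose in CAM+mML56 relative to M-CSF while Tars did not pass. The match is in capitals, read 5′ to 3′ on the gene's own strand, where it appears as its reverse complement.
Gars: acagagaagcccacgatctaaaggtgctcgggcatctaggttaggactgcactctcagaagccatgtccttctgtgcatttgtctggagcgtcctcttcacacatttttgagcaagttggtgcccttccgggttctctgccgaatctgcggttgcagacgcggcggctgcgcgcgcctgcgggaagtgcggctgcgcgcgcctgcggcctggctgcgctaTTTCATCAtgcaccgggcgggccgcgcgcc
Tars: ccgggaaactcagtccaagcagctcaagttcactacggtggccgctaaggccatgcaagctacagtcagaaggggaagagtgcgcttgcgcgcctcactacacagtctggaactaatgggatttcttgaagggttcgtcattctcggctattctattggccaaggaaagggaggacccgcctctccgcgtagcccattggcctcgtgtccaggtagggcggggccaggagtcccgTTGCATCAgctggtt

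The Gars window is chr6:55037751-55038000 (+ strand) and the Tars window chr15:11399659-11399908 (- strand). The match begins 30 bases before the RefSeq start in Gars and 15 in Tars; in GENCODE M21, exon 1 of the transcript Tars-201 covers the last 7 bases of the Tars window. Gars and Tars, named here for their sequence after their values were seen, had close peptide libraries. Gars was at 83.3 and 83.8 CPM in peptide libraries 1 and 2, 64.4 CPM in CAM and 43.0 CPM in M-CSF. Tars was at 40.3 and 38.0 CPM in the peptide libraries, 35.4 CPM in CAM and 32.2 CPM in M-CSF, and passed in none of the comparisons. Of the interferon motifs searched the same way, GAAANNGAAA occurred upstream of 1 of 12 cytosolic genes (Qars) and 0 of 14 mitochondrial genes, against 3.04% of all promoters, and TTCNNNGAA upstream of 2 of 12 and 1 of 14 (Nars2), against 7.18%. A match is a run of letters and not a shown binding site, and the Wars window was not among those matched.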

How the data were processed

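The authors deposited an unscaled table of estimated counts, many of them fractional; the submitters' processing notes name kallisto, StringTie and mm10. Annotation release, strand setting and the summing of transcripts are not given in these sources. The kit marked strand, per the labels' protocols. Columns were matched to samples by name; the second peptide column was matched to its group only, and the numbers 2 and 1 on the M-CSF and CAM columns appear in no label. Estimated counts were rounded to whole numbers. Of 32617 genes, 13199 had no count and 14104 passed filterByExpr. TMM factors were 0.906 and 0.993 (peptide libraries 1 and 2), 0.894 (CAM) and 1.24 (M-CSF).

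The test was edgeR 4.0.16 (R 4.3.3; glmQLFit and glmQLFTest) on all 4 libraries in 3 groups, Benjamini-Hochberg adjusted over all tested genes, threshold 0.05, prior count 0.125, with 1 residual degree of freedom (prior degrees of freedom 11.8, biological coefficient of variation 0.161). Standard errors were taken as the log2 fold change over the root of the F statistic. The code was tested on simulated data. Alternatives were DESeq2 1.42.0, RLE size factors, library sizes alone, no filter on low counts, Lars2 and Gm15662 left out, and each peptide library left out. Members, gene lists and motifs were chosen with earlier results of these data known. The deposited table also gives a transcript length per gene, which was not used. Lengths and 31-base words came from GENCODE M21, where 30 of the 36 members had the deposited coordinates. A word and its reverse complement were counted as the same word, so words shared across strands are included. Members named with values were Lars2, Wars, the 6 cytosolic and 4 mitochondrial genes with the largest called change in CAM over M-CSF and in CAM+mML56 over CAM, and members listed at 0 in one library with at least 5 CPM in another. A partner gene and a promoter stretch that these rules would give are not reported here.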

Additional observations from a re-analysis of the deposited data

How the results depend on the processing

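Each count of called members was recomputed with DESeq2, RLE size factors, library sizes alone, no filter on low counts, and Lars2 with Gm15662 left out. Of the 60 recomputed counts, 44 stayed within 1.5 times the reported one. These include counts of 0 that stayed at 0, so the share is no measure of stability. In CAM over M-CSF, the 8 higher cytosolic genes became 4 with DESeq2 and 3 with library sizes alone. The 1 higher mitochondrial gene became 0 when Lars2 itself was left out, and the 2 lower became 0 with DESeq2, 6 with library sizes alone and 1 without the filter. In CAM+mML56 over CAM, the 3 lower cytosolic genes became 0 with DESeq2, and the 1 lower mitochondrial gene became 0 with DESeq2 and with library sizes alone. In CAM+mML56 over M-CSF, the 2 lower cytosolic genes became 0 with DESeq2, 1 with RLE size factors and 0 without the filter; the 0 higher mitochondrial genes became 1, Lars2, with RLE size factors; and the 4 lower became 0 with DESeq2, 7 with library sizes alone and 2 without the filter. With library sizes alone the cytosolic median log2 fold change was -0.23 in CAM over M-CSF and -0.16 in CAM+mML56 over M-CSF, and the mitochondrial one -1.21 and -0.91. Over all genes, DESeq2 called 3473 (CAM over M-CSF), 2349 (CAM+mML56 over CAM) and 3279 (CAM+mML56 over M-CSF) where edgeR called 6269, 5320 and 5804, and library sizes alone moved the higher share of calls to 28.6% from 48.2% in CAM over M-CSF and to 33.2% from 53.8% in CAM+mML56 over M-CSF. The cause of these moves was not tested beyond that shift of all genes.

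Leaving out a peptide library allows no test. In CAM+mML56 over CAM the cytosolic median ran from 0.19 to 0.32 and the mitochondrial one from -0.09 to 0.21; in CAM+mML56 over M-CSF they ran from 0.23 to 0.30 and from -0.62 to -0.43, and in CAM over M-CSF from 0.24 to 0.27 and from -0.73 to -0.70. No paired analysis was possible because the labels number at most 1 library and a term for the number leaves no residual degree of freedom. Vars, Iars and Ears2 had 13 counts or fewer in each peptide library.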
